A study of Homo sapiens with 4 samples.

Results

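Genes of the cholesterol pathway were examined in HCE cells, the cell line of a study of the corneal epithelium, after knockdown of KLF7, a zinc finger transcription factor of the Krüppel-like family. The members were chosen by gene symbol from a list of 8 sterol-regulated genes: HMGCS1, IDI1, FDFT1, SQLE, LSS, DHCR7, INSIG1 and STARD4. Of these, 7 were matched to an array feature with a single gene symbol, of 18417 genes measured in all. FDFT1, which encodes squalene synthase, was matched to no such feature and was not analysed here. The 7 measured genes make or move sterol, or hold its synthesis in check, and none of them encodes an LDL receptor, and no LDL receptor gene was analysed here. Uptake is covered only by the genes of SREBP control and lysosomal release described further on.

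All samples were HCE cells that the labels describe as undifferentiated, plated at 100000 per well and harvested for total RNA 48 hours after transfection. The 2 scramble control samples received 20 nM of a non-targeting siRNA pool, and the 2 siKLF7 samples received 20 nM of an siRNA pool against KLF7. Each sample was hybridised to 1 whole-transcript array. The samples come from 1 cell line, and the labels leave unsaid whether the samples of a group were grown separately. The p-values therefore reflect sample-to-sample variation of a kind that may be technical alone.

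Animal cells build cholesterol from acetyl-CoA through mevalonate, isoprenoid units, squalene and lanosterol. When sterol in the endoplasmic reticulum is low, SCAP escorts the SREBP transcription factors to the Golgi, where proteases release them to activate the genes of synthesis and uptake. When sterol is plentiful, INSIG proteins hold SCAP and SREBP back, so the genes of the pathway usually move together.

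KLF7 itself stood at log2 levels of 12.19 and 11.52 in scramble control replicates 1 and 2. It stood at 10.56 and 10.15 in siKLF7 replicates 1 and 2. Both siKLF7 arrays thus lay below both controls, an order found for 28.9% of all genes. Levels are log2(deposited signal + 16) throughout, and a difference is siKLF7 minus control on that scale. Median deposited signals were between 185 and 194 on the 4 arrays. Scramble control replicate 1 stood apart, with correlations of 0.934 to 0.938 across genes with the other arrays, while the siKLF7 arrays correlated at 0.994. Genes that mark corneal and stratified epithelium were bright for the basal keratins KRT5 and KRT14 on all 4 arrays, with signals of at least 8379. The corneal keratins differed by array: the KRT3 signal was 0.0055 in scramble control replicate 1 against 1440.4 in replicate 2 and 1873 and 2461 in the siKLF7 arrays, and KRT12 read 67.7 against 1569.7, 2434 and 3136. Over the 9 measured epithelial markers the summed signal was 29286 in scramble control replicate 1 and 36888 to 44118 in the other arrays. Of the 9, 2 went the other way and were highest in scramble control replicate 1. KRT19 read 3456 there against 2097 in replicate 2 and 3273 and 2848 in the siKLF7 arrays. CDH1 read 3939 against 3262, 3280 and 3161 in the same order. Summed signals of the 6 fibroblast or keratocyte markers were 684 to 797, of the 3 vascular markers 774 to 1002, of the 3 leukocyte markers 375 to 436 and of the 3 melanocyte markers 146 to 155, with no marker of these types listed at 0. In bulk RNA, fewer cells of a type and less RNA per cell cannot be told apart. Each comparison is therefore given with all 4 arrays and against each control alone. In a fit against 1 control, no spread between controls enters the SE and p-value. They come mostly from the spread between siKLF7 arrays over all genes, fitted by intensity, and little from the gene's own pair. The residual degree of freedom was 1, against prior degrees of freedom of 74.2 (control replicate 2) and 86.2 (control replicate 1).

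RefSeq promoter windows, each reaching from 250 bases before to 50 bases after an annotated start, were examined for 6 of the 7 measured genes in build GRCh38.p14, 10 windows in all. No window of SQLE is reported here. They were searched on both strands for CCAAT, the box bound by NF-Y, a partner of SREBP at sterol-regulated promoters, for CACNCCAC, a loose form of the sterol regulatory element, for CACCC, the box of Krüppel-like factors, and for GGGCGG, the GC box. CACCC and the GC box can overlap each other on a GC-rich strand. A stricter form of the sterol element, which holds the loose one, was searched too. The 4 windows below belong to the gene that passed a test against scramble control replicate 2 (HMGCS1), to the feedback gene (INSIG1), to the gene with the widest difference from scramble control replicate 1 (STARD4) and to an enzyme whose level followed the mean of the group closely (LSS). Only the 250 bases before the start are shown, 5′ to 3′, and capitals mark CCAAT or its complement ATTGG, and in INSIG1 also the loose sterol element read on the other strand.
HMGCS1, chr5:43313413-43313662, minus strand: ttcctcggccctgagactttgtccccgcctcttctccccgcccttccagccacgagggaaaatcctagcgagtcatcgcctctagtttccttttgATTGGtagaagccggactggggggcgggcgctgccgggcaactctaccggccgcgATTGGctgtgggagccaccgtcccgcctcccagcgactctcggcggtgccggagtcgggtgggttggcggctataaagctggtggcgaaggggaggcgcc
INSIG1, chr7:155297628-155297877, plus strand: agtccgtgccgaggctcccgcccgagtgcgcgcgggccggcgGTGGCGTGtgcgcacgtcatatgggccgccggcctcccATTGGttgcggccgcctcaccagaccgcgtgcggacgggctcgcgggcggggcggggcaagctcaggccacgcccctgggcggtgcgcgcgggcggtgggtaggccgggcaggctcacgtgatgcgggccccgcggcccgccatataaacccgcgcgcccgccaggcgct
STARD4, chr5:111512536-111512785, minus strand: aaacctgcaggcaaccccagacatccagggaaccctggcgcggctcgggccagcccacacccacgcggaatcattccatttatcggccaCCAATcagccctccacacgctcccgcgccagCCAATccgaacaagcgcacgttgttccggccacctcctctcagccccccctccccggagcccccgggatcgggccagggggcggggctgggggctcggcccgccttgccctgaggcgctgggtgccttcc
LSS, chr21:46228775-46229024, minus strand: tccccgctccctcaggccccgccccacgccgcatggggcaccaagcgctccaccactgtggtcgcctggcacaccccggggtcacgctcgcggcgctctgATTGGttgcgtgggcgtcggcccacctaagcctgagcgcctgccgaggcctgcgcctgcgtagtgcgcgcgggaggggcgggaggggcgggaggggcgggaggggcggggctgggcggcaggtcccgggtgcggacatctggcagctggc

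The HMGCS1 window shown held ATTGG 155 and 100 bases before its start, and the other HMGCS1 window held no NF-Y box. The INSIG1 window held ATTGG 170 bases before its start, and the LSS window 150 bases before. STARD4 carried CCAAT 161 and 130 bases before its start. In all, 7 of the 10 windows held the NF-Y box, against 34.6% of 35116 RefSeq windows of 300 bases. Each of the 6 genes held it in at least 1 window. That count per gene has no matching share, since some genes have several windows, and windows of HMGCS1 and of IDI1 overlap. The loose sterol element was found in 2 windows, of INSIG1 (208 bases before the start) and IDI1 (115 bases before the start of its second window), against 5.87% of all windows, and both also held the NF-Y box, a pair found in 1.84% of all windows. The strict element was in 0 of the 10 windows, and in 0.154% of all windows. The KLF box was in 8 of 10 windows against 59.9% of all, and the GC box in 9 against 45% of all. These matches describe letters in a window, and no binding was measured.

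**Figure D1:**
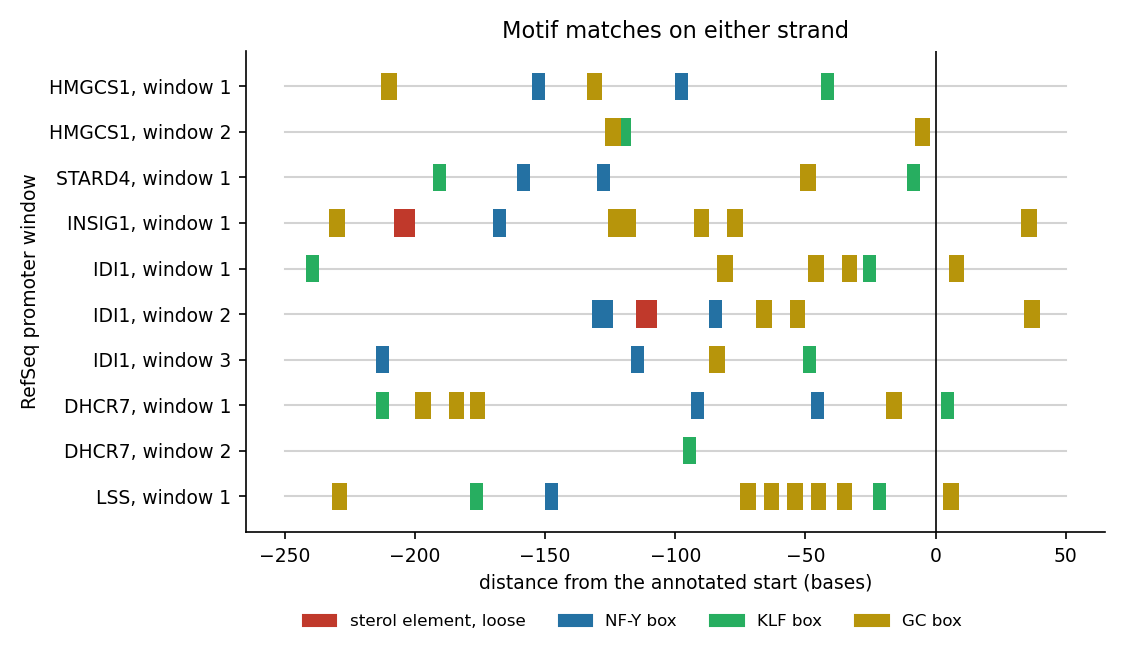
Matches of 4 motifs (coloured blocks, drawn at motif length on either strand) in the 10 RefSeq promoter windows of 6 genes, plotted by distance from the annotated start in bases. Blocks of the NF-Y box lie in 7 of the 10 windows, while the loose sterol element lies in 1 window each of INSIG1 and IDI1.

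Among the enzymes, HMGCS1, the cytosolic synthase that makes HMG-CoA, acts earliest of the measured members. HMGCS1 stood at 11.89 in scramble control replicate 1, 11.14 in replicate 2, and 11.56 and 11.61 in siKLF7 replicates 1 and 2. The siKLF7 arrays lay between the controls, 0.05 apart from each other, while the controls were 0.76 apart. The mean deposited signal of HMGCS1 was 3011 ± 1100.1 (SD, n = 2) for the controls and 3058 ± 81.5 (SD, n = 2) after knockdown. With 4 arrays the difference was 0.07 (SE 0.27), and limma's adjusted p was 0.92. HMGCS1 rose by 0.45 (SE 0.11, limma adjusted p = 0.0097), or 1.37-fold, against scramble control replicate 2 alone. It fell by 0.31 (SE 0.10, limma adjusted p = 0.014) against scramble control replicate 1 alone. Both calls were lost when the prior spread was fitted with no intensity trend, with adjusted p-values of 0.22 and 0.14.

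IDI1, the isomerase that interconverts the isoprenoid building blocks, was the member with the least distance between controls. IDI1 stood at 11.23 and 10.85 in scramble control replicates 1 and 2 and at 11.08 and 11.01 in siKLF7 replicates 1 and 2. Its siKLF7 arrays again lay between the controls, whose gap was 0.38. The 4-array difference was 0.001 (SE 0.17). It was 0.19 (SE 0.12) against scramble control replicate 2 and -0.19 (SE 0.12) against replicate 1, and none of these passed (limma adjusted p = 0.999, 0.57 and 0.25).

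SQLE, the squalene epoxidase, stood at 11.68 in scramble control replicate 1. Its levels in scramble control replicate 2 and siKLF7 replicates 1 and 2 were 10.998, 11.10 and 11.15. LSS, which folds the epoxide into lanosterol, stood at 11.03 against 10.39, 10.44 and 10.46 in the same order. In both genes 1 array was high and the other 3 lay within 0.15 of each other. With 4 arrays SQLE differed by -0.22 (SE 0.25) and LSS by -0.26 (SE 0.24), and neither passed (limma adjusted p = 0.73 and 0.68). Relative to scramble control replicate 1, SQLE fell by 0.56 (SE 0.11, limma adjusted p = 2.8e-05) and LSS by 0.58 (SE 0.13, adjusted p = 0.00022). Their differences from scramble control replicate 2 were 0.13 (SE 0.12) and 0.06 (SE 0.14) and did not pass.

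DHCR7, the reductase that completes cholesterol, was the member with the tightest siKLF7 pair. DHCR7 stood at 11.69 and 10.997 in scramble control replicates 1 and 2 and at 10.96 and 10.97 in siKLF7 replicates 1 and 2. It was the 1 gene of 7 with both siKLF7 arrays below both controls, an order found for 28.9% of all genes, and here the lower control lay only 0.02 above the higher siKLF7 array. The 4-array difference was -0.38 (SE 0.25, limma adjusted p = 0.64). With scramble control replicate 1 as the reference DHCR7 fell by 0.72 (SE 0.11, limma adjusted p = 1.7e-07), and against replicate 2 it stood at -0.03 (SE 0.12).

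INSIG1, the feedback protein that keeps SREBP in the endoplasmic reticulum and is itself an SREBP target, had the widest gap between controls. INSIG1 stood at 10.53 in scramble control replicate 1, 9.56 in replicate 2, and 9.80 and 9.87 in siKLF7 replicates 1 and 2. The controls were 0.97 apart, a gap wider than that of 94.5% of all genes, and the siKLF7 arrays lay between them, 0.07 apart. The mean deposited signal of INSIG1 was 1100.4 ± 509 (SD, n = 2) for the controls and 899 ± 30.9 (SD, n = 2) after knockdown. The difference was -0.21 (SE 0.34, limma adjusted p = 0.81) with 4 arrays, and 0.27 (SE 0.15, adjusted p = 0.50) against scramble control replicate 2, and neither passed. Compared with scramble control replicate 1, INSIG1 fell by 0.69 (SE 0.15, limma adjusted p = 7.9e-05), or 1.61-fold. The promoter shown above for INSIG1 is the one with the loose sterol element.

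STARD4, a soluble carrier that moves sterol between membranes, was the lowest of the 7 relative to either control. STARD4 stood at 10.02 in scramble control replicate 1, 9.07 in replicate 2, and 9.07 and 8.75 in siKLF7 replicates 1 and 2. It was also the 1 member whose siKLF7 arrays were far apart, by 0.32, wider than 91.5% of all genes, and 1 siKLF7 array equalled scramble control replicate 2 within 0.0014. The difference was -0.63 (SE 0.35, limma adjusted p = 0.64) with 4 arrays and -0.16 (SE 0.16, adjusted p = 0.75) against scramble control replicate 2, and neither passed. STARD4 fell by 1.11 (SE 0.16, limma adjusted p = 2.1e-08), or 2.16-fold, relative to scramble control replicate 1.

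**Figure D2:**
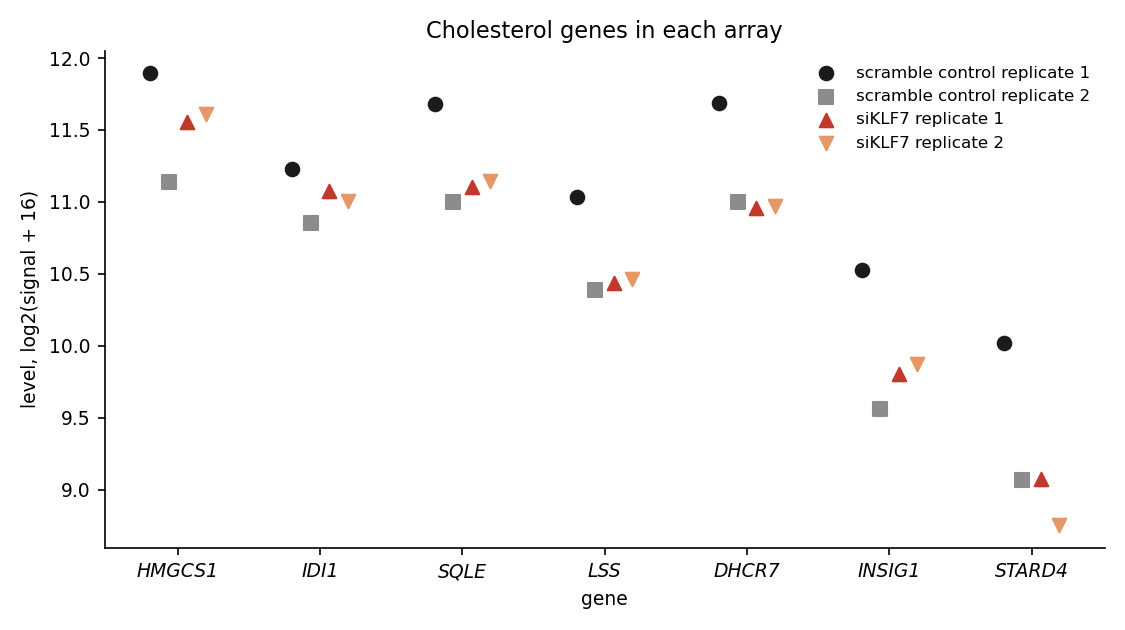
Levels of the 7 measured genes, as log2(signal + 16), with 1 point for each of the 4 arrays. Levels of different genes are not comparable with each other, since each comes from its own probes. Scramble control replicate 1 is the highest point for all 7 genes, from 10.02 for STARD4 to 11.89 for HMGCS1, and the other 3 arrays span 0.04 (DHCR7) to 0.48 (HMGCS1).

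The first comparison asked whether siKLF7 cells differed from scramble control cells with all 4 arrays. None of the 7 genes passed limma's test, and their adjusted p-values ran from 0.64 to 0.999. The share of all genes that passed was 0%, and 5.8% (1069 genes) had an unadjusted p under 0.05, as did 0 of the 7. An exact two-sided permutation test of 2 arrays against 2 cannot go below p = 0.333. The median difference over the 7 genes was -0.22, against -0.05 over all genes, with 2 genes above 0 and 5 below. Single-gene standard errors had a median of 0.25 over the 7 genes.

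Against scramble control replicate 2 alone, 1 of the 7 genes rose (HMGCS1) and 0 fell. Over all genes 0.885% rose and 0.69% fell. The 7 differences were ordered HMGCS1, INSIG1, IDI1, SQLE, LSS, DHCR7 and STARD4, from 0.45 to -0.16, with a median of 0.13 against -0.04 over all genes. HMGCS1 and INSIG1 lay 0.18 apart, and the later neighbours in that order 0.06 to 0.13 apart, less than the larger standard error of each pair. Both siKLF7 arrays were above this control for 5 of 7 genes, against 29.7% of all genes. In the same comparison 5 of the 9 epithelial markers rose: KRT15 by 0.85 (SE 0.13), KRT12 by 0.81 (SE 0.12), ALDH3A1 by 0.65 (SE 0.15), KRT3 by 0.57 (SE 0.13) and KRT19 by 0.54 (SE 0.11). Of the 6 fibroblast or keratocyte markers, 4 differed from this control below 0 and 2 above 0, with a median of -0.16. LUM was higher, by 0.64 (SE 0.16), but dim. Its signal was 34.6 in this control and 63.5 and 62.4 in the siKLF7 arrays. The part of these marker differences in the HMGCS1 result was not tested. This fit has 1 residual degree of freedom and assumes that the lone control varies like the siKLF7 pair.

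Against scramble control replicate 1 alone, 6 of the 7 genes fell and 0 rose, and IDI1 did not pass. Over all genes 13.4% fell and 13.4% rose in this comparison, 4935 genes together. The median difference was -0.58 over the 7 genes and -0.055 over all genes. Both siKLF7 arrays were below this control for 7 of 7 genes, against 48.2% of all genes. These values rest on the array that stood apart and that had low KRT3 and KRT12 signals, and the part of that difference in the result was not tested. Both comparisons use the same siKLF7 arrays, so they are not independent of each other. The fit against replicate 1 also has 1 residual degree of freedom and the same assumption about its lone control. For the 7 genes the median gap between controls was 0.69, against 0.05 between siKLF7 arrays. Standard errors and p-values of both single-control fits leave that gap between controls out.

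**Figure D3:**
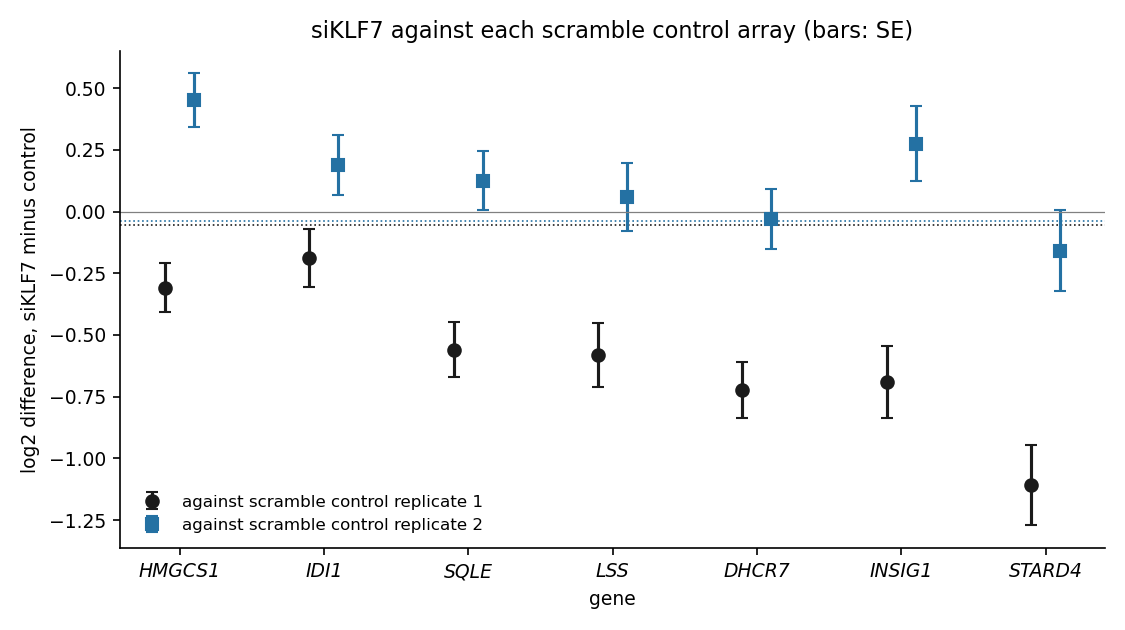
Difference in log2(signal + 16), siKLF7 minus control, for the 7 genes against scramble control replicate 1 (circles) and replicate 2 (squares), with bars of 1 SE from limma and dotted lines at the median of all genes (-0.055 and -0.04). All 7 circles lie below 0, from -0.19 to -1.11, and the squares lie between -0.16 and 0.45.

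The controls differed more from each other than the siKLF7 arrays did for 7 of the 7 genes, an order found for 65.1% of all genes. The median gap between controls was 0.69 over the 7 genes and 0.20 over all genes, and the median gap between siKLF7 arrays was 0.05 and 0.12. Scramble control replicate 1 was the highest of the 4 arrays for 7 of 7 genes, against 38.3% of all genes, and scramble control replicate 2 the lowest for 5 of 7, against 17.2%. For the same 5 genes (HMGCS1, IDI1, SQLE, LSS and INSIG1) both siKLF7 arrays lay above scramble control replicate 2 and below replicate 1, an order found for 9.67% of all genes. The summed signal of the 7 genes was 17289.8 in scramble control replicate 1, 10710.3 in replicate 2, and 12069.8 and 12132 in the siKLF7 arrays. With values centred on each gene's mean, the 7 genes averaged 0.48 in scramble control replicate 1, -0.25 in replicate 2, and -0.10 and -0.13 in the siKLF7 arrays. SQLE lay closest to that mean profile, at a Euclidean distance of 0.06, and STARD4 farthest, at 0.48. Outside the group, the 5 genes with the closest profile over the 4 arrays were GALNT2 (distance 0.022), DCBLD2 (0.027), IL7 (0.032), PDE8A (0.036) and ERCC1 (0.038).

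The other enzymes of cholesterol synthesis gave a wider picture, with 12 of 15 measured. With 4 arrays 0 of 12 passed, and the median difference was -0.08. Against scramble control replicate 2, 0 of 12 passed limma's test, and at an unadjusted p under 0.05 the count was also 0 in both comparisons. Differences from replicate 2 were above 0 for 11 of 12, against 42.2% of all genes, with a median of 0.10. Both siKLF7 arrays lay below scramble control replicate 1 for 7 of 12 and above it for 3, against 8880 and 6476 of all 18417 genes. The median difference from that control was -0.25, against -0.055 over all genes. FDPS, which joins isoprenoid units into farnesyl diphosphate, stood at 10.73 and 9.96 in the controls and 9.77 and 9.92 in the siKLF7 arrays, below both controls, and fell by 0.88 (SE 0.14, limma adjusted p = 4.2e-07) against scramble control replicate 1. CYP51A1, the lanosterol demethylase, stood at 11.26 and 10.63 in the controls and 10.73 and 10.64 in the siKLF7 arrays, and its other feature, which read dimmer, showed the same high array at 10.65 against 9.92 to 9.995.

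PMVK, the phosphomevalonate kinase, and TM7SF2, a sterol reductase, were lowest in scramble control replicate 1, the array in which the 7 genes were highest. TM7SF2 stood at 6.46 in scramble control replicate 1 against 8.86, 8.996 and 9.01 in scramble control replicate 2 and the siKLF7 arrays, and rose by 2.54 (SE 0.16, limma adjusted p = 4.3e-25) against scramble control replicate 1. PMVK stood at 7.64 there against 8.15 to 8.28 in the other 3 arrays, and rose by 0.62 (SE 0.16, limma adjusted p = 0.0018). Against scramble control replicate 2 TM7SF2 differed by 0.14 (SE 0.16) and PMVK by 0.10 (SE 0.16), and neither passed.

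Of the 12 genes written for SREBP control and uptake, 9 were measured (SREBF1, SREBF2, SCAP, INSIG2, MBTPS1, MBTPS2, MYLIP, NPC1 and NPC2), and the other 3 were not analysed here. None of the 9 passed limma's test with 4 arrays or against scramble control replicate 2. Against replicate 1, 1 rose and 1 fell, 2 of 9, where 26.8% of all genes passed in either direction. SREBF2, the SREBP gene most tied to cholesterol synthesis, stood at 10.78 and 10.61 in the controls and 10.54 and 10.56 in the siKLF7 arrays, below both controls by a small margin (-0.14, SE 0.13). INSIG2, the other INSIG gene, differed by -0.12 with 4 arrays and -0.05 against scramble control replicate 2. NPC1 and NPC2, the lysosomal proteins that release cholesterol taken up in LDL, went in opposite directions: against scramble control replicate 1 NPC1 fell by 0.83 (SE 0.13) and NPC2 rose by 0.54 (SE 0.10), with limma adjusted p-values of 2.2e-07 and 6.1e-06. At an unadjusted limma p under 0.05, 0 of the 9 stood out with 4 arrays and 0 against scramble control replicate 2. The list median was -0.08 with 4 arrays and 0.02 against scramble control replicate 2.

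Genes of sterol storage and export, 5 of 6 measured, were highest in scramble control replicate 1 for 4 of 5, against 38.3% of all genes. ABCA1, the exporter that loads cholesterol onto apolipoproteins, stood at 9.90 in that array against 7.42 in scramble control replicate 2 and 7.88 and 7.70 in the siKLF7 arrays. It fell by 2.11 (SE 0.16, limma adjusted p = 5.0e-20) against scramble control replicate 1, and its difference from replicate 2 was 0.37 (SE 0.16), which did not pass. SOAT1, which esterifies cholesterol for storage, fell by 0.90 (SE 0.16) and ABCG1, a second exporter, by 0.43 (SE 0.16, adjusted p = 0.038) against scramble control replicate 1. ABCG1 was the 1 of these 5 below both controls, at 7.63 and 7.42 against 7.95 and 7.90, an order found for 28.9% of all genes. Its 4-array difference of -0.40 (SE 0.13) had an unadjusted limma p of 0.029 and did not pass after adjustment. STARD3, a late endosomal sterol carrier, differed by -0.11 with 4 arrays and 0.03 against scramble control replicate 2.

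Fatty acid synthesis genes form the other arm of SREBP control. Scramble control replicate 1 was the highest array for 7 of 8, against 38.3% of all genes. All 8 were measured, and scramble control replicate 1 was above replicate 2 for 8 of 8, against 49.2% of all genes. With 4 arrays 0 passed limma's test, 0 had an unadjusted p under 0.05 and the median was -0.26. Both siKLF7 arrays lay below scramble control replicate 1 for 7 of 8, against 48.2% of all genes. The median difference from that control was -0.63, against -0.055 over all genes. ELOVL6, a fatty acid elongase, stood at 10.60 and 9.53 in the controls and 10.11 and 9.997 in the siKLF7 arrays. It was the 1 gene of the 8 to pass against scramble control replicate 2, and rose by 0.53 (SE 0.15, limma adjusted p = 0.044), a call lost with a pseudocount of 1, with the mean of a gene's features and with no trend (adjusted p = 0.052, 0.058 and 0.12). ACLY, the enzyme that supplies cytosolic acetyl-CoA, stood at 12.27 and 11.46 in the controls and 11.22 and 11.23 in the siKLF7 arrays, and fell by 1.05 (SE 0.10, limma adjusted p = 8.2e-15) against scramble control replicate 1. The desaturase genes FADS1 and FADS2 fell by 0.83 (SE 0.12) and 0.72 (SE 0.09) against that control. ACSS2, which makes acetyl-CoA from acetate, fell by 0.44 (SE 0.14, adjusted p = 0.011) against it, and stood at 0.02 (SE 0.14) against replicate 2.

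Genes of the isoprenoid branch, 4 of 6 measured, formed the shortest of the 5 related lists. PGGT1B and FNTA, subunits of protein prenyltransferases, differed by 0.18 (SE 0.13) and -0.001 (SE 0.12) with 4 arrays, and DHDDS and COQ2, which act in dolichol and ubiquinone synthesis, by -0.09 and 0.05. None of the 4 passed limma's test in any of the 3 comparisons, and 0 had an unadjusted p under 0.05 in any of them. Their controls were at most 0.10 apart, with medians of 0.03 with 4 arrays, 0.03 against scramble control replicate 2 and 0.02 against replicate 1.

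**Figure D4:**
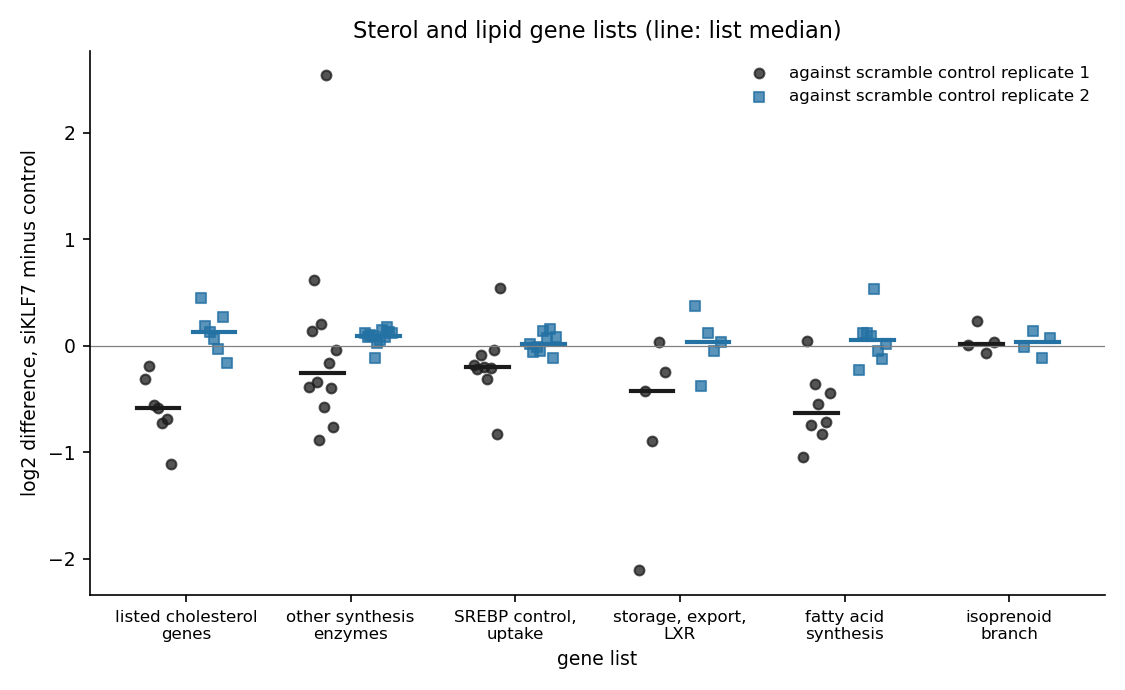
Difference in log2(signal + 16), siKLF7 minus control, for each gene of the 7 measured cholesterol genes and 5 related lists, against scramble control replicate 1 (circles) and replicate 2 (squares), with a line at each list median. The list medians against scramble control replicate 1 run from -0.63 for fatty acid synthesis to 0.02 for the isoprenoid branch, and those against replicate 2 from 0.02 to 0.13.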

How the data were processed

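Total RNA of 4 HCE samples, 2 scramble control and 2 siKLF7, was measured on 1 array each. The authors deposited 1 table of intensity values on a linear scale for 33297 features, for which the submitters' processing notes name Affymetrix Expression Console 1.1.1 with PLIER 2.0. Normalization between arrays and the genome build are not given in the sources used here. Groups and replicate numbers came from the sample labels. Platform annotation gave a single symbol for 19460 features, several for 1754 and none listed for 12083. Where 1 gene had several features (769 genes), its feature of highest mean log2 value stood for it, giving 18417 genes.

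Values were analysed as log2(signal + 16), a scale that shrinks changes of dim genes, with no further normalization or filter. Differences were fitted across all genes by limma 3.58.1 (R 4.3.3; lmFit, then eBayes using an intensity trend), two-sided. P-values were adjusted by Benjamini-Hochberg over the 18417 genes, and an adjusted p under 0.05 passed. Fits were made with 4 arrays and with the siKLF7 pair against each control. Residual degrees of freedom were 2, 1 and 1, and prior degrees of freedom 2.63, 74.2 (control replicate 2) and 86.2 (control replicate 1). The number of arrays limits the precision. The fits were also run on simulated data. Those were drawn with the same spread for controls and siKLF7 arrays, so they cannot check the assumption about a lone control. Members and lists were chosen with earlier results of these data known. Named genes were the members, KLF7, list genes that passed with 4 arrays or against control replicate 2, up to 4 more per list by smallest limma p with 4 arrays, and the 5 closest profiles, and list genes without a single-symbol feature were not analysed here. RefSeq promoters are of GRCh38.p14. Alternatives were quantile normalization, median centring, a pseudocount of 1 or 32, leaving out the dimmest 25% or 50% of genes, the mean of a gene's features, eBayes without a trend or with a robust trend, a threshold of 0.10, a replicate block, and each array left out in turn. Plots used matplotlib 3.10.9.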

Additional observations from a re-analysis of the deposited data

How the results depend on the processing

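Outside the leave-one-out fits, the 7 cholesterol genes kept their direction and their side of the threshold in 76 of 77 values with 4 arrays, 69 of 70 against scramble control replicate 1 and 68 of 70 against replicate 2. The exceptions were IDI1 with 4 arrays (-0.0395 with quantile normalization), DHCR7 against replicate 2 (0.0166 with median centring) and HMGCS1 with no trend in both single-control fits, which left 0 members called against replicate 2. Genes called against replicate 2 numbered 461 with median centring and 172 with no trend, against 290. Quantile normalization also turned INSIG2 (0.011) and ACSS2 (-0.00291) against replicate 2, and COQ2 (-0.000737) and FNTA (-0.00645) against replicate 1. Median centring turned ELOVL6 (0.0155) and FNTA (0.0222) with 4 arrays and FNTA (0.0376) against replicate 2, and the mean of a gene's features turned CYP51A1 (-0.00097) against replicate 2. The causes were not tested. Part of the counts for the 7 cholesterol genes was fixed beforehand. The threshold of 0.10 left their fits as they were, and each gene was still judged at 0.05. The mean of a gene's features could not move their differences, since each of the 7 has 1 feature.

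Leaving out 1 array at a time from the 4-array fit gave 0 to 6 members called, 0 to 4935 genes called and a member median of -0.58 to 0.13; the fit without scramble control replicate 1 called 290 genes and 1 member, that without replicate 2 called 4935 genes and 6 members, and those without either siKLF7 array called 0 of both. Ranges that crossed 0 were -0.31 to 0.45 for HMGCS1, -0.19 to 0.19 for IDI1, -0.56 to 0.13 for SQLE, -0.58 to 0.0593 for LSS, -0.69 to 0.27 for INSIG1, -0.58 to 0.0528 for CYP51A1, -0.30 to 0.0581 for INSIG2, -0.90 to 0.12 for SOAT1, -2.11 to 0.37 for ABCA1, -0.25 to 0.0337 for STARD3, -0.55 to 0.53 for ELOVL6, -0.44 to 0.0154 for ACSS2, -0.0209 to 0.13 for COQ2, -0.0452 to 0.0433 for FNTA. The replicate number as a block gave 0 of the 7 genes and 0 of 18417 called, as without it. The labels leave unsaid whether same-numbered samples share more than a number. The correlation of their deviations from the group means was -0.04 over genes, which cannot decide this with 4 arrays. With 1 siKLF7 array against 1 control no test is left: HMGCS1 then differed from scramble control replicate 2 by 0.42 and 0.48.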
